A study of Mus musculus with 3 samples.

Results

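Solute carriers are membrane proteins that move nutrients, metabolites and ions across the plasma membrane and the membranes of organelles, and in the mouse their genes bear the prefix Slc followed by a family number. The members described here are the protein-coding genes of that prefix in the GENCODE M21 annotation for which long reads gave at least 1 spliced isoform, counted as an isoform that shares a splice site with the gene on the same strand. There were 115 such genes among 371 annotated Slc genes (31% of them), against 6523 of 21951 annotated protein-coding genes in the series as a whole. Genes were sorted by the usual substrate of their family. 3 of the members, Slc4a1ap, Slc7a6os and Slc9a3r1, carry the prefix but are not carriers themselves.

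The study followed the 3′ ends of mRNAs in CD4+ T cells from C57BL/6N wild-type male mice aged 6 to 10 weeks. Naive CD4+ T cells were purified from spleen and lymph nodes, stained with a division dye, activated with antibodies against CD3 and CD28, and sorted 48 h later by the number of divisions. PacBio Iso-Seq, which reads whole cDNA molecules, was run on 3 libraries, 1 for each group: naive cells, activated cells that had not divided and activated cells that had divided 2 times. All cells shared the wild-type genotype, and the undivided sort held every cell that kept the full dye, whatever its state of activation. The names of the deposited files carry one cell label for the activated libraries and another for the naive one. If these labels mark the SMRT cell of the run, which no other source states, activation and SMRT cell cannot be told apart. Each group is a single library, so no test between groups was possible, and intervals below cover counting error only.

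The deposited files list isoform structures with no read counts. A number of isoforms is therefore a count of distinct structures, not a level of expression, and the absence of an isoform says only that none was listed for that library. In such bulk libraries fewer cells of a type and less RNA per cell cannot be told apart. The naive, undivided and 2-division libraries held 10527, 12602 and 11109 isoforms, of which 8863, 11574 and 10135 shared a splice site with an annotated gene. Of 11 CD4 T cell markers examined, 9 were found in each activated library and all 11 in the naive one. Of 12 B cell markers, 2 were found in each activated library and 8 in the naive one, and their isoforms numbered 6 in undivided cells and 5 in cells of 2 divisions against 23 in naive cells. Erythroid and platelet markers showed 0 of 8 genes in both activated libraries and 2 in naive cells, and the red cell anion exchanger Slc4a1 was not found in any library. Of 9 myeloid markers 1 was found in each library, and of 6 CD8 T and NK cell markers 1, 2 and 2 in naive, undivided and 2-division cells. Of 4 regulatory T cell markers 2 were found in each library, with 2, 11 and 8 isoforms, of which Il2ra had 0, 10 and 6. The part of these cells in the results below was not tested.

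T cells are known to enlarge and rewire their metabolism within a day or so of activation, which calls for more imported glucose, amino acids and iron and for more traffic between the cytosol and the mitochondrion. Many plasma membrane carriers for amino acids work as pairs in which a heavy chain brings a light chain to the surface. The length of the 3′ untranslated region (3′ UTR), set by the poly(A) site at which the transcript is cleaved, decides which regulatory sites a carrier's mRNA holds.

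Slc genes made up a similar share of the isoforms in all 3 libraries. Isoforms of Slc genes numbered 140, 186 and 158 in the naive, undivided and 2-division libraries, from 76, 98 and 79 genes. As a share of the isoforms assigned to genes this was 1.58% for the naive library (exact 95% interval 1.33 to 1.86), 1.61% for the undivided one (1.39 to 1.85) and 1.56% for that of 2 divisions (1.33 to 1.82), with intervals that overlapped throughout. Of all annotated Slc genes 20.5%, 26.4% and 21.3% were found in the 3 libraries, beside 20.3%, 24.2% and 22.5% of all protein-coding genes, so the higher number in undivided cells accompanied a larger number of genes of every kind there. About as many members had a single isoform as had several: 42, 50 and 38 genes had 1 isoform, and 7, 11 and 10 had 4 or more.

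The families differed widely in how many of their genes were found, as the plot of genes by substrate shows. Mitochondrial carriers were the largest group, with 23 of 47 annotated genes, followed by amino acid and peptide carriers with 16 of 68 and carriers of nucleotide sugars with 13 of 27. Zinc carriers gave 12 of 24 genes and ion and pH carriers 12 of 51, whereas organic ion and vesicular carriers, many of them known from neurons, liver and kidney, gave 3 of 43. Amino acid carriers were found for more genes in both activated libraries, with 15 in undivided cells and 15 in cells of 2 divisions, against 8 in naive cells. All protein-coding genes found numbered 5323, 4931 and 4458 in the same order. Mitochondrial carriers were nearly level, with 18, 21 and 18 genes in naive, undivided and 2-division cells. Ion and pH carriers varied as widely, with 6, 10 and 3 genes, and 4 of them were found in undivided cells alone.

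**Figure D1:**
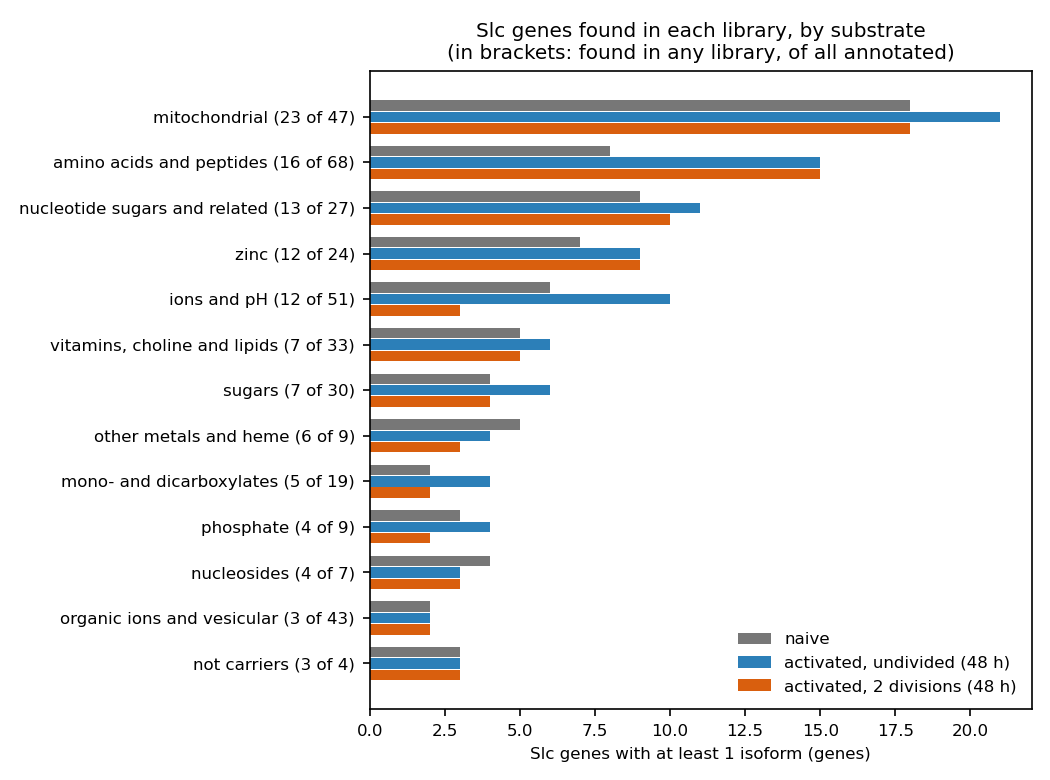
Number of Slc genes with at least 1 isoform in each library (horizontal axis, genes), by substrate group, with naive cells, activated undivided cells and activated cells of 2 divisions from top to bottom in each group. Amino acid carriers were found for 8, 15 and 15 genes, whereas mitochondrial carriers were found for 18, 21 and 18.

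Over the members together, 52 of 115 genes (45.2%) were found in all libraries, beside a background of 50.4% of the protein-coding genes found in the series. The 20 members found in both activated libraries and not in naive cells (17.4%, interval 11 to 25.6) stood beside a background of 15.2%, and the 10 found in naive cells alone (8.70%) beside 8.39%. Genes found in undivided cells alone numbered 17 (14.8%, interval 8.85 to 22.6; background 9.67%), and those found in cells of 2 divisions alone numbered 2 (1.74%, interval 0.211 to 6.14; background 6.76%). A further 9 members (7.83%; background 6.35%) were in naive and undivided cells and 5 (4.35%; background 3.25%) in naive cells and cells of 2 divisions. Each background lay inside the members' interval except that for cells of 2 divisions alone, which lay above it. The 2 genes in that class were Slc30a9 and Slc39a13, both of zinc carrier families, with 1 isoform each.

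Counted by isoforms, 22 members had at least 2 more isoforms in undivided than in naive cells (19.1%; background 17.1%) and 8 had at least 2 fewer (6.96%; background 7.37%). For cells of 2 divisions against naive cells, 15 members had at least 2 more (13.04%; background 13.5%) and 9 at least 2 fewer (7.83%; background 8.89%). These shares lay close to the background in both directions, so the members as a whole did not stand apart from other genes in their number of isoforms.

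Amino acid carriers accounted for 8 of the 20 genes found in both activated libraries alone. That was 8 of the 16 amino acid carriers found, beside 15.2% of all protein-coding genes found. The 8 genes were Slc7a5, Slc7a1, Slc7a3, Slc43a3, Slc1a4, Slc6a9, Slc38a7 and Slc15a3. The group's isoforms numbered 39 in undivided cells and 35 in cells of 2 divisions, against 13 in naive cells. Isoforms assigned to any gene numbered 11574, 10135 and 8863 in the same order. This group was read out after its counts were known, and no test of it was made. Slc1a4, an exchanger of small neutral amino acids, Slc6a9, a glycine carrier, and Slc15a3, a peptide and histidine carrier of endosomes, had 1 isoform in each activated library. The lysosomal carrier Slc38a7 had 1 in undivided cells and 2 in cells of 2 divisions. The one amino acid carrier found in naive cells alone was Slc43a2, a carrier of large neutral amino acids, with 1 isoform.

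Slc7a5 encodes the light chain of the main importer of large neutral amino acids (LAT1), and Slc3a2 the heavy chain CD98 that takes it to the surface. For Slc7a5 the naive, undivided and 2-division libraries listed 0, 2 and 2 isoforms. The longest, in undivided cells, ran over 10 exons and 3110 nt from chr8:121907283 to chr8:121881146 (GRCm38, minus strand) and used every annotated junction, and the others began further downstream; none of the 4 held the whole annotated coding sequence. For Slc3a2 they listed 1, 7 and 4, all with a whole annotated coding sequence, which could be a short one. Of these Slc3a2 isoforms 0, 4 and 1 spanned an intron that another isoform spliced out. In naive cells the single isoform was the 9-exon chain that starts at chr19:8713872. Both activated libraries also held a 10-exon isoform from a start about as far upstream as the gene reaches, at chr19:8723215, and the naive library listed none from that start. All Slc3a2 isoforms of the 3 libraries ended within a few nucleotides of one another, between chr19:8707568 and chr19:8707573.

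Slc1a5 encodes ASCT2, a glutamine and neutral amino acid exchanger. Its single naive isoform had 8 exons and 2774 nt and kept an annotated intron, so that it matched an annotated transcript with a retained intron and held no whole coding sequence. The activated libraries held the same 8-exon chain and also the fully spliced 9-exon chain of 2702 nt, with the coding sequence. In number Slc1a5 had 1, 3 and 4 isoforms over the stages. The glutamine importers Slc38a1 and Slc38a2 were found in every library, with 3, 5 and 3 isoforms of Slc38a1 and 2, 5 and 3 of Slc38a2. Slc7a6, which exchanges basic for neutral amino acids together with CD98, had 2, 4 and 1.

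Several of these calls rest on 3′ ends that lie just before runs of adenine in the genome, where the primer used to copy mRNA can anneal inside a transcript. Ends with at least 12 adenines in the following 20 bases made up 20.7% (interval 14.3 to 28.4), 21.0% (15.4 to 27.5) and 20.3% (14.3 to 27.4) of Slc isoforms in naive, undivided and 2-division cells, beside 23.1%, 19.2% and 19.7% for all protein-coding genes. The arginine importers Slc7a1 and Slc7a3 had such ends alone. So had Slc38a1, for all of its 3, 5 and 3 isoforms, and Slc6a6, for its 1, 1 and 2 in naive, undivided and 2-division cells. Slc7a1 had 0, 1 and 1 isoforms, and both ended at chr5:148328347. Slc7a3 had 0, 4 and 2. With A-rich ends set aside, 11 amino acid carrier genes were still found in either activated library, against 6 in the naive one. The sequences below show the last 10 bases before an end and the following 20 bases of the genome, read from the GRCm38 reference on the gene's strand, with each adenine after the end in capitals. They are shown because they set the A-rich ends of amino acid carriers beside the distal end of Slc43a3, which is not A-rich.
Slc7a3, chrX:101079202-101079231: ggaaaattgtAAAAAAAAAAccAAAAAAcc
Slc38a1, chr15:96576255-96576284: tgctttacagAAAAAAAAtAAggtttcAgA
Slc43a3, proximal end, chr2:84957905-84957934: ctgccaccacAAgAAAcAAAccAAcAAAAA
Slc43a3, distal end, chr2:84958498-84958527: tgtttaaggcAActActgcttctAcctctt
Slc7a3 had 16 adenines after its end, Slc38a1 had 12 and the proximal end of Slc43a3 had 15, whereas the distal end of Slc43a3 had 4. Slc43a3, placed here by its family though its human counterpart is known to carry purine nucleobases, was absent from the naive list, with 2 isoforms in the undivided library and 6 in that of 2 divisions. Of those 6, 5 used the proximal, A-rich end and 1 the distal end.

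Sugar and lactate carriers showed a mixed picture. Slc2a1, the glucose importer GLUT1, had 2, 3 and 4 isoforms in naive, undivided and 2-division cells, and Slc2a3, the glucose importer GLUT3, had 1 in each, with the same 10 exons and an end that moved by 1 base. Slc50a1, a sugar carrier of intracellular membranes, had 1 isoform in each activated library against 5 in naive cells. The single isoform of either activated library and 4 of the naive ones spanned an intron that another isoform spliced out. A whole annotated coding sequence was held by 2 naive isoforms and by neither activated one. Of the monocarboxylate carriers, Slc16a1 (MCT1) had 1 isoform of 3218 nt in each library with the same start and end, chr3:104638668 to chr3:104657254. Slc16a3 (MCT4), known as an exporter of lactate, had 0, 2 and 3 isoforms. The related Slc16a5 (MCT6) had none in the activated libraries and 5 in naive cells, 4 of which ended at 1 poly(A) site. Bsg, the glycoprotein that carries MCT1 and MCT4 to the surface, had 1, 4 and 2.

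Mitochondrial carriers were found in every library for 15 of 23 members. The ADP/ATP carriers Slc25a4 and Slc25a5 had 1, 2, 2 and 3, 4, 4 isoforms in naive, undivided and 2-division cells. Slc25a11, the oxoglutarate carrier, had 2, 3 and 5, and Slc25a22, a glutamate carrier, 2, 4 and 5. Of these, 2, 4 and 4 Slc25a22 isoforms had A-rich ends, as had 2, 2 and 3 of the Slc25a5 isoforms. Slc25a3, the phosphate carrier, went the other way with 3 in each activated library against 5 in naive cells. In every library 1 Slc25a3 isoform was the 8-exon chain with the coding sequence, and of the other isoforms 1 in cells of 2 divisions, 2 in undivided cells and 3 in naive cells spanned an intron that another isoform spliced out. Slc25a22 isoforms that spanned such an intron numbered 1, 2 and 3 in naive, undivided and 2-division cells. Slc25a10 (dicarboxylates), Slc25a13 (aspartate and glutamate) and Slc25a24 (ATP-Mg and phosphate) were found in both activated libraries and not in naive cells. Slc25a29 (basic amino acids) and Slc25a44 (branched-chain amino acids) were found in naive cells alone, with 1 isoform each, and the end of Slc25a44 was A-rich.

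The member with the most isoforms in any one library was a choline carrier in naive cells. Slc44a2, a choline carrier of the plasma membrane and mitochondria, had 6 isoforms in undivided cells and 6 in cells of 2 divisions, against 13 in naive cells. Of the naive isoforms 3 ended at chr9:21343575, in front of 17 adenines, and the other 10 at the annotated distal end near chr9:21355023, where all the activated ones ended. Whole coding sequences were held by 3 Slc44a2 isoforms in every library, and isoforms that spanned a spliced intron numbered 3 in undivided cells and 2 in cells of 2 divisions, against 7 in naive cells. Slc28a2, a concentrative purine nucleoside importer, had 1 isoform in each activated library against 5 in naive cells, where 3 of them began at an upstream start between chr2:122426367 and chr2:122426428. Slc29a1, the equilibrative nucleoside carrier, had 1, 3 and 5, and the folate carrier Slc19a1 had 1 in each library.

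Metal carriers showed single genes on either side. Slc31a1, the main copper importer, had 0, 2 and 2 isoforms in naive, undivided and 2-division cells. Slc11a2, the iron importer of the transferrin cycle, had 1, 2 and 0. Tfrc, the transferrin receptor that supplies that cycle, had 0, 7 and 4. The iron exporter Slc40a1 had 1 isoform, in naive cells. Of the zinc carriers, Slc39a7, which releases zinc from the endoplasmic reticulum, had 3, 5 and 3, Slc39a1 had 1 in each library and Slc39a6 had 2 in each. Of the Slc39a7 isoforms 2, 4 and 3 spanned an intron that another isoform spliced out. Slc39a10 had 1 in naive cells and 1 in cells of 2 divisions and none in undivided cells. Slc30a1, a zinc exporter on the list of genes known from T cell activation, had no isoform in any library.

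**Figure D2:**
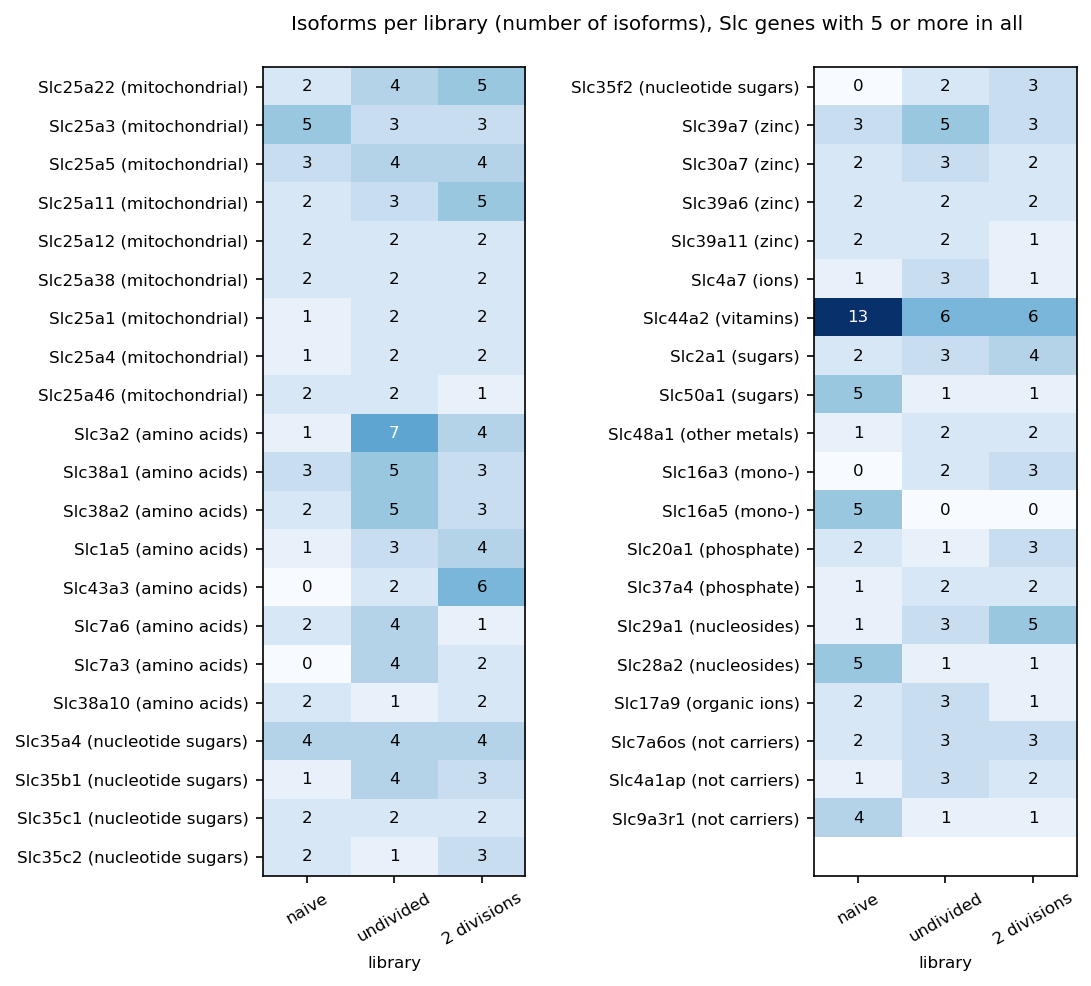
Number of isoforms (figure in each cell, darker for more) of 41 Slc genes with 5 or more isoforms over the libraries, in naive cells, activated undivided cells and activated cells of 2 divisions from left to right, with the substrate group in brackets. Slc44a2 had 13, 6 and 6 isoforms, Slc3a2 had 1, 7 and 4 and Slc16a5 had 5, 0 and 0.

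The members found in naive cells alone were otherwise sparse. Besides Slc16a5 with 5 isoforms, Slc9a9, a sodium and proton exchanger of endosomes, had 2. The others had 1 isoform each, and among them were the urea carrier Slc14a1, the multivitamin carrier Slc5a6, the mitochondrial sodium and calcium exchanger Slc8b1 and Slc35a5 of the nucleotide sugar family. Of the marker lists above, those of B cells, erythroid cells and CD4 T cells gave more genes in the naive library than in either activated one. Those of myeloid cells, of CD8 T and NK cells and of regulatory T cells did not. Any link to the carriers found in naive cells alone was not tested.

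Slc isoforms were slightly longer than those of other genes. Their median lengths were 2466, 2350 and 2226 nt in the naive, undivided and 2-division libraries, beside 2274, 2065 and 1976 nt for all protein-coding genes. In Slc isoforms that held a whole annotated coding sequence, the median length after its stop codon was 773, 739 and 660 nt. All protein-coding genes gave 732, 603 and 551 nt. That coding sequence was the longest one held, from any annotated protein-coding transcript of the gene, so it could be a short one. Later coding exons could then count in this length: a naive Slc20a1 isoform gave 2767 nt with a terminal exon of 925 nt. The value is therefore not always the 3′ UTR of the main protein. In each library the Slc median was the higher one, and in both sets the medians were ordered naive, undivided, 2 divisions from long to short, which was not tested. An AATAAA or ATTAAA hexamer within 50 nt of the end was present in 74.3%, 67.2% and 69.0% of Slc isoforms, beside 68.3%, 69.0% and 69.4%.

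Whole annotated coding sequences were held by 72.9% of Slc isoforms in the naive library (interval 64.7 to 80.0), by 79.0% in the undivided one (72.5 to 84.6) and by 78.5% in that of 2 divisions (71.3 to 84.6). The shares for all protein-coding genes were 69.8%, 70.7% and 71.3%, below the Slc interval in undivided cells and at its lower edge in cells of 2 divisions. By gene, 70 of 76, 90 of 98 and 72 of 79 members (92.1%, 91.8% and 91.1%) had at least 1 isoform with such a coding sequence. The shares of all protein-coding genes found, 87.9%, 90.1% and 90.2%, were close to these. Slc isoforms that spanned an intron of the annotation made up 31.4% (23.9 to 39.8), 23.1% (17.3 to 29.9) and 24.7% (18.2 to 32.2), above the 21.99%, 15.6% and 14.7% of all protein-coding isoforms. That difference depended on what counted as an intron. With introns that another isoform of the same gene spliced out in these libraries, the Slc shares were 22.9% (16.2 to 30.7), 15.1% (10.2 to 21.0) and 15.8% (10.5 to 22.5), and the shares for all protein-coding genes, 18.9%, 13.1% and 12.1%, lay inside the Slc intervals. Isoforms of 1 gene are not independent, so these intervals are narrower than the true uncertainty.

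**Figure D3:**
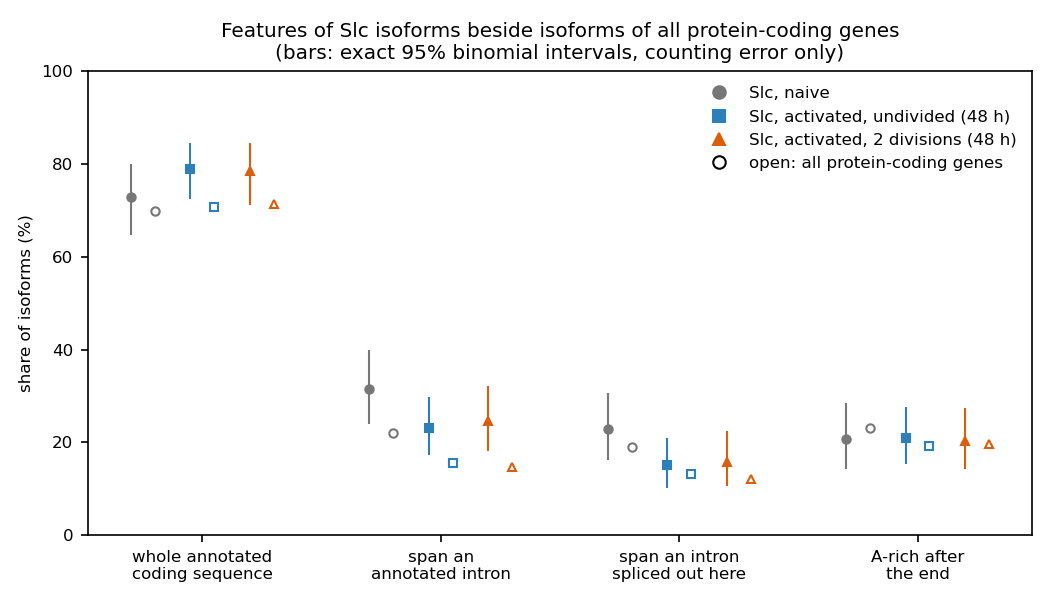
Share of isoforms (vertical axis, percent) with each feature, for Slc genes (filled symbols) and all protein-coding genes (open symbols), in naive cells, activated undivided cells and activated cells of 2 divisions from left to right; bars are exact 95% binomial intervals. Slc isoforms spanned annotated introns more often than all isoforms (31.4% beside 21.99% in naive cells), and this gap narrowed to 22.9% beside 18.9% with introns spliced out in these libraries.

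Tandem 3′ ends, that is, ends more than 24 nt apart in a terminal exon with the same start, were found for 13 of 84 Slc terminal exons in naive cells (15.5%; background 16.1%), 21 of 108 in undivided cells (19.4%; background 21.9%) and 17 of 85 in cells of 2 divisions (20%; background 19.8%). Over the libraries together 33 terminal exons of 33 members had tandem ends, and 4 had them in every library. Of these 27 had 2 ends, 4 had 3 and 2 had 4. The distance from the most proximal to the most distal end had a median of 593 nt and ran from 32 nt in Slc1a5 to 4671 nt in Slc30a7. Hexamers were present at 26 of the 33 most distal ends and at 21 of the 41 other ends, and 24 of the most distal ends but 5 of the others lay within 10 nt of an annotated end. A-rich ends numbered 4 among the most distal and 8 among the others. The hexamers, annotated ends and A-rich ends were not counted at tandem ends of other genes, so the gaps may not be particular to Slc genes. Without A-rich ends, the naive, undivided and 2-division libraries had 7, 18 and 12 Slc terminal exons with tandem ends. These last counts have no background beside them, so whether their order is particular to Slc genes was not tested.

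**Figure D4:**
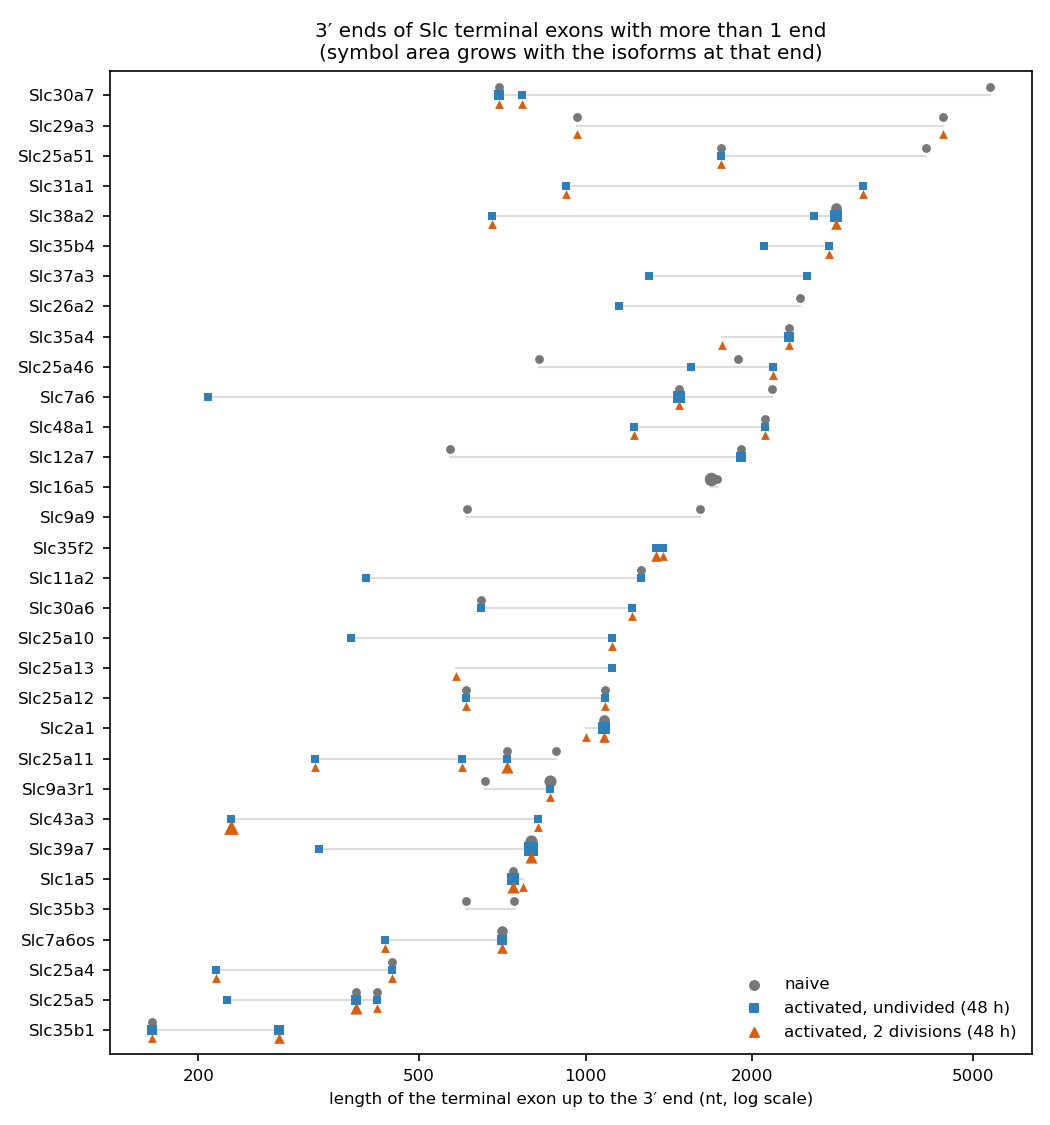
Terminal exon length up to each 3′ end (horizontal axis, nt, log scale) for 32 Slc genes with tandem ends, with naive cells, activated undivided cells and activated cells of 2 divisions from top to bottom at each gene and larger symbols for more isoforms. The ends of Slc30a7 lay 4671 nt apart, and Slc31a1 had ends at 923 and 3171 nt in both activated libraries and none in naive cells.

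The last 30 bases of the terminal exons of 5 carriers are shown because in them both ends, or the one that differed between libraries, carried a hexamer, which is in capitals where it falls in the window. They were read from the GRCm38 reference on the gene's strand, and the last base is the 3′ end.
Slc31a1, proximal, chr4:62389491-62389520: gagattgttaAATAAAaccattagtatttt
Slc31a1, distal, chr4:62391739-62391768: caaAATAAAtattttgattttcgtgattct
Slc25a12, proximal, chr2:71274746-71274775: gaatcatgtaagAATAAAtgtactaaagtt
Slc25a12, distal, chr2:71274270-71274299: gaatcaaaAATAAAagcacaccaaaatgtc
Slc25a51, proximal, chr4:45398422-45398451: taaacaAATAAAcacttccataaagtttta
Slc25a51, distal, chr4:45396065-45396094: ctatataAATAAAtgcatatcaaaagcttg
Slc7a6, middle, chr8:106197991-106198020: AATAAAtctttggatttttggtatgaactg
Slc7a6, distal, chr8:106198681-106198710: ctcAATAAAgacttaggggagtctaatcac
Slc38a2, proximal, chr15:96689550-96689579: aaactccatcaaacaatttcattgatattt
Slc38a2, distal, chr15:96687394-96687423: aactgaactaaAATAAAtacatgattaatc
The hexamer of the proximal Slc38a2 end began 33 nt before the end and so lies outside its window.

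Slc31a1 had 1 isoform at each end in both activated libraries, with terminal exons of 923 and 3171 nt in undivided cells, and was not found in naive cells. Slc25a12, an aspartate and glutamate carrier, had 1 isoform at each end, 608 and 1084 nt, in all 3 libraries. Slc25a51, which carries NAD+ into mitochondria, had the proximal end alone in both activated libraries and both ends in naive cells. Slc7a6 had its distal end, 2167 nt, in naive cells alone, and a further end at 208 nt in undivided cells alone. Slc38a2 ended at the distal site in all libraries and at the proximal one, 679 nt into the terminal exon, in both activated libraries and not in naive cells. A middle end, at 2587 nt and not shown above, had 1 isoform, in undivided cells alone. That proximal end had 1 isoform in each activated library. It was followed by 11 adenines in the next 20 bases, just below the cutoff for an A-rich end. Whether the primer annealed inside the transcript there was not tested.

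Setting the mean terminal exon length of the libraries side by side, 9 of 62 Slc terminal exons were more than 100 nt shorter in undivided than in naive cells (14.5%; background 13%) and 4 were longer (6.45%; background 5.67%). In cells of 2 divisions 8 of 58 were shorter than in naive cells (13.8%; background 13.6%) and 3 longer (5.17%; background 4.78%). Between cells of 2 divisions and undivided cells 5 of 74 were shorter (6.76%; background 8.41%) and 5 longer (6.76%; background 6.95%). With mean lengths, shorter terminal exons outnumbered longer ones in both comparisons with naive cells, in about the proportion of all protein-coding genes, and were equal in number between the activated libraries. This rested on the use of the mean: with the longest terminal exon of each library in its place, 5 were shorter and 4 longer in undivided than in naive cells, and 4 were shorter and 4 longer in cells of 2 divisions than in naive cells. No share over all protein-coding genes was set beside the counts from the longest exon. Whether Slc genes differ from others under that rule was not tested.

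The largest difference was in Slc30a7, a zinc carrier of the Golgi, whose terminal exon averaged 722 nt over 3 isoforms in undivided cells and 732.5 nt over 2 in cells of 2 divisions, against 3035 nt over 2 in naive cells, a difference of -2313 and -2302 nt. One naive isoform of 5370 nt, whose end was A-rich with 12 adenines, made the difference, and the other naive end, at 699 nt, was shared by all libraries. Slc25a51 differed by -1181 nt in undivided cells and -1180 nt in cells of 2 divisions, with 1 isoform in each activated library. Slc26a2, a sulfate carrier, differed by -1287 nt in undivided cells from 1 isoform in either library, both with A-rich ends. Slc38a2 differed by -481 nt in undivided cells and -720 nt in cells of 2 divisions, and Slc7a6 by -664 and -353 nt. In each activated library 1 Slc38a2 isoform was at the proximal end, which was followed by 11 adenines. In undivided cells 1 other was at the middle end, at 2587 nt.

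Smaller shortenings were found for Slc48a1, a heme carrier of endosomes, with -441 nt in undivided cells and -443 nt in cells of 2 divisions, and for Slc11a2, with -430 nt in undivided cells. Slc25a11 differed by -255 and -186 nt and Slc25a4 by -120 nt in each, for Slc25a4 from a proximal end followed by 16 adenines. For Slc25a11, 1 of the 2 naive isoforms, with a terminal exon of 885 nt, ended before 18 adenines. Slc35a4 differed in cells of 2 divisions alone, by -286 nt. Lengthening over naive cells was found for Slc25a46, a protein of the mitochondrial outer membrane, with 512 nt in undivided cells and 825 nt in cells of 2 divisions. The potassium and chloride cotransporter Slc12a7 was longer by 661 nt in undivided cells, and the zinc carrier Slc30a6 by 283 nt in undivided cells and 568 nt in cells of 2 divisions. The counts of isoforms behind these means were 1 to 5 in each library, and each difference comes from the presence or absence of single isoforms.

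**Figure D5:**
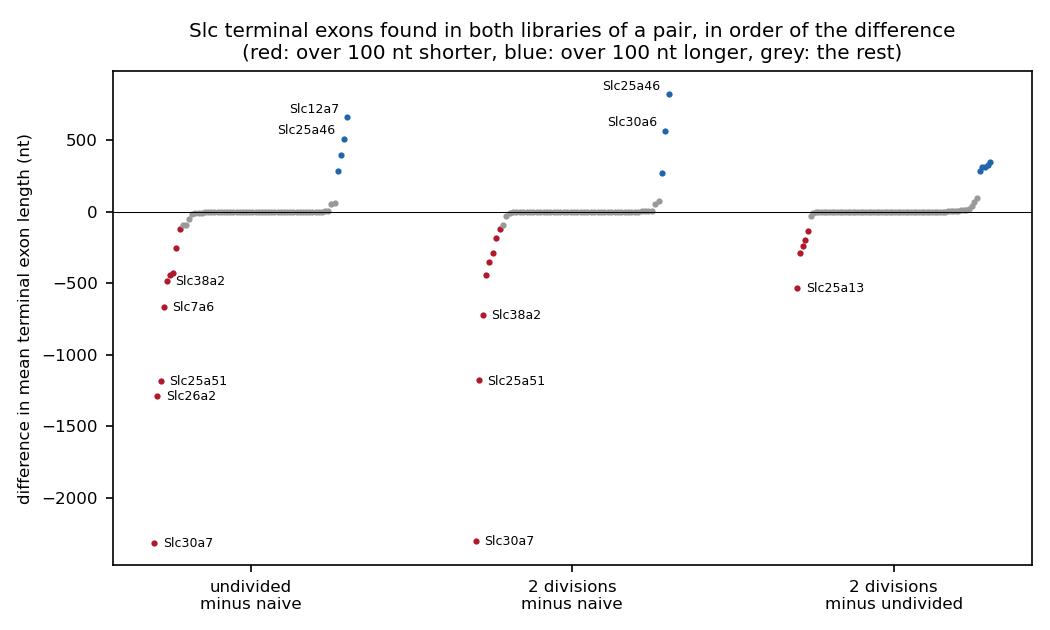
Difference in mean terminal exon length (vertical axis, nt) for each Slc terminal exon found in both libraries of a pair, in order of the difference within each pair. Most lie at 0, 9 and 8 were over 100 nt shorter in undivided cells and in cells of 2 divisions than in naive cells, and Slc30a7 differed by -2313 and -2302 nt.

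Between the activated libraries, Slc25a13 differed by -530 nt in cells of 2 divisions from undivided cells, Slc35a4 by -286 nt, Slc38a2 by -238 nt and Slc43a3 by -198 nt. The end of Slc25a13 in cells of 2 divisions was A-rich, as was the proximal end of Slc43a3. Slc25a10 was longer by 349 nt in cells of 2 divisions, the nucleotide sugar carrier Slc35b4 by 325 nt, Slc25a46 by 314 nt, Slc7a6 by 311 nt and Slc30a6 by 286 nt. Each of these rested on at most 6 isoforms in a library.

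Carriers and partners outside the Slc names, a list of 32 genes, gave 18 genes in naive cells, 19 in undivided cells and 16 in cells of 2 divisions, with 41, 45 and 36 isoforms. Tfrc and Bsg are given above. Txnip, which restrains glucose uptake, had 2 isoforms in undivided cells and 1 in cells of 2 divisions, against 6 in naive cells, and the lysosomal lipid carrier Spns1 had 1 and 0 against 4. Mpc1, a subunit of the mitochondrial pyruvate carrier, had 1 in each library.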

How the data were processed

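The authors purified naive CD4+ T cells, activated and sorted them, made Iso-Seq cDNA, kept full-length reads with poly(A) tails of at least 20 nt, clustered them with isoseq3, mapped the polished isoforms to the mouse genome with pbmm2, collapsed them into transcripts and annotated these with SQANTI3, for which minimap2 was the chosen aligner. The deposited exon and transcript coordinates are other values (positions on GRCm38, no counts), so depth per isoform is unknown. Here each isoform was given the GENCODE M21 gene with which it shared most splice sites. The 96, 113 and 96 isoforms off the reference nuclear chromosomes and those without a shared site were left out. Isoforms of Slc39a7 (1, 1 and 2 in naive, undivided and 2-division cells) tied with Gm20427, and those of Slc10a3 (1, 1 and 2) with Ubl4a. Terminal exon lengths were compared where the exon start was the same. Ends within 24 nt were merged, and an end was A-rich with at least 12 adenines in the next 20 nt. Python 3.11.15, scipy 1.17.1 and pysam 0.24.0 were used, and the steps were tested on simulated isoforms. Alternatives and their effect are given in the closing section. The members and lists were chosen with earlier results of these data known. Genes are named by rule: the 10 with most isoforms, those with at least 2 isoforms in both activated libraries and none in naive cells, those in naive cells alone, up to 15 each with tandem ends and changed terminal exons, and genes known from T cell activation. Other genes were named after their values were seen. The values of 1 member are counted in the totals but not reported here by name.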

Additional observations from a re-analysis of the deposited data

Results flagged for a closer look

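Isoforms that lay over Slc exons but shared no splice site with them were left out of the main counts. Counted in by exonic overlap as an alternative, they brought Slc isoforms to 146, 193 and 165 in naive, undivided and 2-division cells. The isoforms left out numbered 6 in naive cells, 7 in undivided cells and 7 in cells of 2 divisions. They drew attention because they lie outside the main comparisons. Each had a single exon, and among them Slc38a1, Slc38a2 and Slc38a10 recurred in more than one library. They included models over Slc25a27, Slc35e1 and Slc25a32, genes with no spliced isoform in any library. The next 20 bases held 17 adenines for Slc25a27 and 18 for Slc25a32, both A-rich, and 1 for Slc35e1. Slc38a10 models ended before 18 adenines in naive and undivided cells, and Slc38a2 models before 5 in both activated libraries.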

How the results depend on the processing

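Every group is 1 library, so no replicate could be left out, and no result carries a test. No paired analysis was possible because each group holds a single library. Over 21 results and their alternatives, 48 values stayed within 1.5 times the main one, 15 moved and 3 were in another unit, so that they could not be set against it. Asking for at least 2 isoforms left 34, 48 and 41 Slc genes in naive, undivided and 2-division cells, with 4 and 8 amino acid carrier genes in naive and undivided cells. Per 1000 assigned isoforms Slc isoforms numbered 15.8, 16.1 and 15.6. Without A-rich ends the naive tandem terminal exons fell to 7 and those shorter in cells of 2 divisions than in undivided cells to 3. With the longest terminal exon in place of the mean, shorter ones numbered 5 (undivided over naive), 4 (2 divisions over naive) and 1 (2 divisions over undivided), and longer ones 4, 4 and 0, so that shorter no longer outnumbered longer in 2 divisions over naive. Counts of terminal exons without A-rich ends or with the longest exon had no share over all protein-coding genes beside them. A threshold of 50 nt gave 5 longer in 2 divisions over naive, and 200 nt gave 3 shorter in 2 divisions over undivided. Chosen after seeing the data, introns spliced out in these libraries left 28 and 25 intron-spanning isoforms in undivided and 2-division cells, beside 43 and 39 with annotated introns. With a single isoform often behind a call, the depth of each library limits what can be found.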
